A study of Homo sapiens with 4 samples.

Results

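MHC class I presentation genes encode the parts of the route by which nucleated cells display peptides to CD8+ T cells. The 9 genes taken here were *HLA-B*, *HLA-C*, *HLA-E*, *HLA-F*, *B2M*, *TAP1*, *TAP2*, *TAPBP* and *NLRC5*. They were chosen by their symbols in GENCODE 44, among 20033 protein-coding genes and 62663 annotated genes on the assembled chromosomes; the rule itself reads no measured value. A gene's peaks were all those within 3 kb of the transcription start site (TSS) of an annotated transcript, in the gene or within 50 kb of it. By this rule the genes had 45 distinct peaks of 30819 in the control library and 50 of 39654 in the IFN-γ library.

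The libraries were Flag ChIP-seq of HK1, an established line of nasopharyngeal carcinoma cells, with Flag-tagged FLI1 overexpressed in every sample. The control cells received PBS and the other cells received IFN-γ for 24 h. The antibody recognised the tag, so the signal was that of the overexpressed protein, and binding of the cells' own FLI1 was not measured. Whether the cells were 1 clone or a pool was not given in the sources used here, and the input libraries were not analysed here. There was 1 library per condition and no replicate, so the treatment itself could not be tested, and each comparison sets 1 library against the other.

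A class I molecule consists of a heavy chain, a light chain and a peptide, and is loaded in the endoplasmic reticulum with peptides that the TAP transporter brings in from the cytosol. IFN-γ induces these genes in part through IRF1, and NLRC5 acts with RFX, CREB and NF-Y factors on a conserved promoter module of X and Y boxes, next to which lie interferon-responsive and NF-κB elements. FLI1 is a factor of the ETS family, whose members bind the core GGAA, read as TTCC on the other strand, and FLI1 fused to EWS is known to bind runs of GGAA repeats.

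Flag-FLI1 peaks lay at promoters of most of these genes, as they did for most protein-coding genes. Apart from *NLRC5* at 23.9, the fold enrichment in the control library was 5.98 to 8.31, beside a median of 7.81 over all promoter peaks. In the IFN-γ library it was 4.18 to 12.7 apart from *NLRC5* at 18.3, beside a median of 6.80. The *NLRC5* value is that of a peak in exon 31, 71.9 kb inside the gene. The *HLA-B* value is that of a peak at alternative TSSs 9.68 to 9.89 kb upstream of the main one. A promoter peak, defined as one that reached within 3 kb of any annotated TSS of the gene, was listed for 7 of the 9 genes in the control library, where 61.9% of all protein-coding genes had one. In the IFN-γ library it was listed for 6 of the 9, against 59.7% of all protein-coding genes. Overlapping promoter peaks in both libraries were found for 6 of the 9, against 54.9% of all. With the TSS of the MANE Select transcript alone, the reference transcript of each gene, the counts were 6 and 5, against 57.9% and 54.5% of 19061 genes. Counts over 9 genes are near all of those shares and are no result about these genes. *HLA-C* and *HLA-F* had no promoter peak in either library, and *TAP2* had one in the control library only. A gene without a peak may still be bound below the threshold at which that library was called.

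The sequence under the promoter summits is shown first, since it is the sequence on which the promoter values rest. Each line gives 151 bases of GRCh38, plus strand, centred on the summit of the strongest promoter peak of the gene by −log10 p, with every ETS core (GGAA or TTCC) in capitals. For *TAPBP* the weaker control summit is shown, because the IFN-γ summit lay in an annotated untranslated region of the neighbouring *ZBTB22*.
HLA-B, upstream TSS cluster, IFN-γ summit, chr6:31366982-31367132: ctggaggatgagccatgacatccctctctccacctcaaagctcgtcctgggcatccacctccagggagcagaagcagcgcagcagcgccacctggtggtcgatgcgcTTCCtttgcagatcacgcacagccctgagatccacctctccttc
HLA-E, control summit, chr6:30489504-30489654: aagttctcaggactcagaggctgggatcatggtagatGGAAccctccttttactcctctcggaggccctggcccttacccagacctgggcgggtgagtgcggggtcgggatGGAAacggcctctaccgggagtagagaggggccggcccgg
B2M, IFN-γ summit, chr15:44711853-44712003: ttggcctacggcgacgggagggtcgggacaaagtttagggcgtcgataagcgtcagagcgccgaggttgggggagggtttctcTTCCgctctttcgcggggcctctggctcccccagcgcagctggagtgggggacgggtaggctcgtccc
TAP1, control summit, chr6:32853723-32853873: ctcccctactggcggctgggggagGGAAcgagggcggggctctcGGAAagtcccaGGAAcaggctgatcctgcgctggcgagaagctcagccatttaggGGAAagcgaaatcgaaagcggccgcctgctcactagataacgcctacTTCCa
TAP2, control summit, chr6:32838770-32838920: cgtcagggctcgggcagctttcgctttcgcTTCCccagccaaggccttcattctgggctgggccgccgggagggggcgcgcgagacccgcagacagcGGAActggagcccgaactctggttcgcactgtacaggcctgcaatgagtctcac
TAPBP, control summit, chr6:33313364-33313514: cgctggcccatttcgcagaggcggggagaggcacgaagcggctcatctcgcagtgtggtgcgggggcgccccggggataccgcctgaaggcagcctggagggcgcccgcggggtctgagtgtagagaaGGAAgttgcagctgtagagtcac
NLRC5, exon 31, IFN-γ summit, chr16:57061390-57061540: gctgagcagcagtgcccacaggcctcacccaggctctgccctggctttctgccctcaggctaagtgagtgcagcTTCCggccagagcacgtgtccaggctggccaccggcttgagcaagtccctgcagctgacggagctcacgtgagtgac
There was 1 ETS core in the printed windows of *HLA-B*, *B2M*, *TAPBP* and *NLRC5*, and 2 in those of *HLA-E* and *TAP2*. The *TAP1* window held 5, and no core was repeated in tandem. In the wider window of 100 bp either side, these summits held 1 to 5 cores, beside a median of 3 over all promoter summits of each library. The *TAP1* and *TAP2* windows each held 2 matches to AANNGAAA, the letters searched as the interferon regulatory factor (IRF) site, and the *B2M* window held 1.

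Away from the promoters, the only site near *HLA-C* and the site 24 kb downstream of *B2M* lay at runs of 9 units of the core. Other peaks of high fold, such as that at *DAXX*, held no run beyond 2 units. A run of 4 units lay under a peak of low fold near *HLA-E*, in an untranslated region of *GNL1*. The share of all peaks at such runs was not counted. Within 100 bp of the summit the *HLA-C* site held 9 cores. Distal summits of each library had a median of 4 and a 95th percentile of 20. The *B2M* site, counted at a promoter of another gene, held 17. Promoter summits had a median of 3 and 95th percentiles of 7 (control) and 9 (IFN-γ). For comparison 5 windows are shown, chosen after their values were seen. They are written in the same way, and their values are given with each gene below.
HLA-C, 30.7 kb downstream of the TSS, chr6:31241274-31241424: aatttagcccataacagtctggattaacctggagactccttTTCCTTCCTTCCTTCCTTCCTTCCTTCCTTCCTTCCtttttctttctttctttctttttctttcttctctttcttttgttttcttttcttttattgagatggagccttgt
HLA-E, 27 kb downstream, chr6:30516452-30516602: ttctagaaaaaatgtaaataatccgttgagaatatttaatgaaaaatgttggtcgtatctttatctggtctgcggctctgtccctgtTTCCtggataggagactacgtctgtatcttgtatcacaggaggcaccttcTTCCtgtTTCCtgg
HLA-F, 44 kb upstream, chr6:29679408-29679558: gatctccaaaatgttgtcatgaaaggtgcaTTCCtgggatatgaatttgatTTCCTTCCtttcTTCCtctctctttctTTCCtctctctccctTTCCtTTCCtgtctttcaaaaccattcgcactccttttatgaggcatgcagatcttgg
B2M, 15.3 kb downstream, chr15:44726748-44726898: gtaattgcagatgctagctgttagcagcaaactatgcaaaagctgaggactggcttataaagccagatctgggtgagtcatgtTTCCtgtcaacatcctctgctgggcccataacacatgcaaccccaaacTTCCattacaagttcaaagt
B2M, 24 kb downstream, chr15:44735406-44735556: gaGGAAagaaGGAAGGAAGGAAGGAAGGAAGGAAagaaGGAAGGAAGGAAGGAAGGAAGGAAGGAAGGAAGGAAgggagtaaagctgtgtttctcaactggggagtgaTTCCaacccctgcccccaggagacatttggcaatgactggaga
The *HLA-C* window held a run of 9 TTCC units, and the window 24 kb from *B2M* held 17 cores, with a longest run of 9 GGAA units. The *HLA-F* window held 7 cores in a pyrimidine-rich stretch with no run beyond 2 units. The windows 15.3 kb from *B2M* and 27 kb from *HLA-E* held 2 and 3 cores and no tandem pair.

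Summit heights are given as fragments piled up at the summit (the pileup), recovered from the deposited fold enrichment and −log10 p, and as the authors' fold enrichment over the local background. Over all peaks the median pileup was 16 control and 22 IFN-γ fragments, and the IFN-γ library was taken as 1.456 times as deep, the ratio of the lowest backgrounds. Ratios of IFN-γ over control pileup were divided by that factor and carry exact Clopper-Pearson 95% intervals, which cover counting error only. The ratios do not take out the local background. The 14601 overlapping pairs at promoters had a median ratio of 0.874 and the 9945 distal pairs one of 1.24. These medians differ between promoters and distal sites, so each gene's ratio is read beside them.

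**Figure D1:**
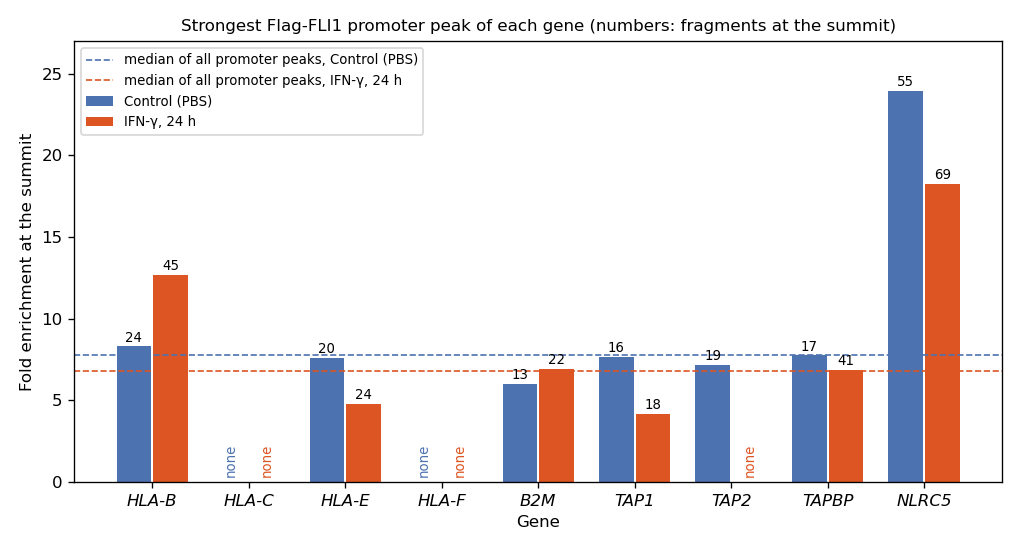
Fold enrichment at the summit (vertical axis, linear) of the strongest promoter peak of each gene in the control and IFN-γ libraries, with the fragments at the summit above each bar and dashed lines at the median of all promoter peaks, 7.81 and 6.80. *NLRC5* stands highest at 23.9 and 18.3, for a peak in exon 31, 71.9 kb inside the gene. At its MANE promoter the folds were 4.65 and 5.02. *HLA-B* reaches 12.7 with IFN-γ, at TSSs 9.68 to 9.89 kb upstream of its MANE TSS. *HLA-C* and *HLA-F* have none.

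Among the heavy chains, *HLA-B* (ENSG00000234745, minus strand of chromosome 6, 31353872 to 31367067) encodes a classical class I molecule that presents peptides to CD8+ T cells. Its peak was not at the promoter of the MANE transcript, which starts at 31357179, but at a cluster of annotated TSSs 9.68 to 9.89 kb upstream. Of the 13 annotated transcripts, 7 started there, 4 of them protein-coding. The summit held 24 fragments in the control library (fold 8.31) and 45 in the IFN-γ library (fold 12.7), and the summits lay 29 bp apart. The ratio was 1.288 (0.768 to 2.21), an interval that includes 1. The MANE TSS was 9.76 kb from the nearest control peak edge and 9.58 kb from the nearest IFN-γ one. The upstream cluster overlaps another annotated gene, ENSG00000285647, and the peak cannot be assigned to either of them.

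Further upstream of *HLA-B* the strongest peaks were at *MICA*, which encodes a stress-induced ligand of the NKG2D receptor. The peak 42.8 kb from the *HLA-B* TSS, 171 bp from a *MICA* TSS in the control library, held 43 fragments (fold 15.8) against 36 (fold 9.90) with IFN-γ. Its ratio was 0.575 (0.359 to 0.917), the only pair near the 9 genes with an interval below 1, as 13.8% of all promoter pairs had. A peak 46.5 kb away, 4 bp from another *MICA* TSS, held 25 and 27 fragments, a ratio of 0.742 (0.414 to 1.33). In the control list alone, 2 further peaks were called near *HLA-B*. Both were near the end of that list, with 10 and 9 fragments (folds 2.74 and 2.92) and ranks of 30798 and 30705 of 30819.

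*HLA-C* (ENSG00000204525, minus strand of chromosome 6, 31268749 to 31272130), the other classical heavy chain gene among the 9, had 1 peak per library and none at any of its 9 TSSs. The peak lay 30.7 kb downstream of the MANE TSS at the TTCC repeat printed above, 16291 bp from the nearest annotated TSS. It held 8 control fragments (fold 4.06) and 31 with IFN-γ (fold 10.6), a ratio of 2.66 (1.197 to 6.70). The control summit thus rested on few fragments, and the interval is wide. Of all distal pairs, 18.9% had an interval above 1 and 1.81% one below.

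*HLA-E* (ENSG00000204592, plus strand of chromosome 6, 30489509 to 30494194) encodes a non-classical molecule that is the ligand of the NKG2A receptor. It was the only heavy chain gene of the 4 with a peak over its MANE TSS. The summit lay in exon 1, 70 bp from that TSS in the control library, and the summits of both libraries lay 9 bp apart. Control and IFN-γ pileups were 20 fragments (fold 7.61) and 24 fragments (fold 4.76). The ratio was 0.824 (0.436 to 1.57), close to the median of promoter pairs.

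In each library the peak of highest fold near *HLA-E* lay downstream of the gene and not at its promoter. This peak 27 kb downstream, 261 bp from a TSS of the noncoding gene *LINC02569*, held 67 fragments (fold 12.7) in the control library and 166 (fold 31.8) in the IFN-γ library, where it ranked 412 of 39654. Its ratio was 1.70 (1.27 to 2.295). The peak 11.4 kb downstream, with no TSS nearer than that of *HLA-E* itself, held 18 control fragments (fold 5.16) and 46 with IFN-γ (fold 11.5), a ratio of 1.755 (0.998 to 3.22). A distal pair 52.8 kb from the TSS, in an untranslated region of *GNL1*, held 16 control fragments (fold 3.63) and 24 with IFN-γ (fold 3.75), both lower in fold than the promoter, at a ratio of 1.03 (0.525 to 2.08).

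*HLA-F* (ENSG00000204642, plus strand of chromosome 6, 29722775 to 29738528) encodes another non-classical molecule. It had no promoter peak at any of its 14 TSSs, and the nearest peak edge was 24.6 kb (control) and 14.6 kb (IFN-γ) from the MANE TSS. The latter peak lay within the annotated gene but outside the MANE transcript and was low, with 25 fragments and a fold of 3.90. The highest peak of the neighbourhood lay 44 kb upstream, 1669 bp from a TSS of *ZFP57*, a zinc finger gene that acts in genomic imprinting. Its 46 control fragments (fold 10.0) stood against 120 IFN-γ fragments (fold 34.8), at a ratio of 1.79 (1.27 to 2.58). Beside it, 45.1 kb upstream of *HLA-F*, a peak of 50 fragments (fold 10.8) was listed in the IFN-γ library alone.

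The heavy chain genes are similar to each other, and this similarity was measured on the reference. The promoters from 250 bases before to 50 after the MANE TSS were 88.3% identical between *HLA-B* and *HLA-C*, 79.3% between *HLA-B* and *HLA-F* and 61.3% between *HLA-B* and *HLA-E*. Within 500 bp of the MANE TSS of each of the 9 genes, 0 of 902 stretches of 100 bases occurred exactly elsewhere on the assembled chromosomes. The same was found for the 202 stretches of that length around each printed summit, both repeats included. Only exact matches on the assembled chromosomes were counted, so the search cannot show how reads from similar but not identical stretches were placed. The classical genes *HLA-B* and *HLA-C* are highly variable between people, and how reads of HK1's own alleles aligned to the reference was not measured.

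*B2M* (ENSG00000166710, plus strand of chromosome 15, 44711358 to 44718851) encodes β2-microglobulin, the light chain of the class I molecule. Its promoter peak spanned the MANE TSS at 44711517, with the summit in intron 1, 14 bp from the nearest annotated TSS in the control library and 1 bp in the IFN-γ library. The summit held 13 fragments in the control library (fold 5.98) and 22 in the IFN-γ library (fold 6.93). The ratio was 1.16 (0.560 to 2.51), and the peak ranked 19386 of 30819 and 18779 of 39654. A second, lower peak in intron 1 was listed in the IFN-γ library alone, with 16 fragments.

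The region downstream of *B2M* held the highest ratios among all overlapping pairs near the 9 genes. At the GGAA repeat 24 kb downstream (44735055 to 44735738 in the IFN-γ list), 15 fragments (fold 7.78) were piled up in the control library and 110 (fold 33.4) in the IFN-γ library. The ratio was 5.04 (2.92 to 9.30), and the rank in the IFN-γ list was 861. At the site 15.3 kb downstream, which has no repeat, 24 fragments (fold 8.97) stood against 107 (fold 29.1), a ratio of 3.06 (1.95 to 4.99). Between them, 203 bp from a TSS of *TRIM69* in the control library, a pair held 12 and 28 fragments at a ratio of 1.60 (0.789 to 3.46).

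Both of the higher sites lay within 3 kb of a TSS of *TRIM69*, which encodes a ubiquitin ligase, at 1047 and 2165 bp. They thus counted among promoter pairs, of which 7.44% had an interval above 1, against 18.9% of distal pairs. On the other side of *B2M*, at the *SPG11* promoter 47.8 kb upstream, the pileup was 70 and 79 fragments, a ratio of 0.775 (0.555 to 1.09). Of the 5 control peaks of the *B2M* neighbourhood, 5 overlapped an IFN-γ peak, while 5 of the 9 from the IFN-γ library overlapped a control one, beside 77.5% and 61.0% of the whole lists. Intervals above 1 were thus found on the downstream side of *B2M*, and at its promoter the interval included 1. Whether the promoter and the downstream sites differed from each other was not tested.

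**Figure D2:**
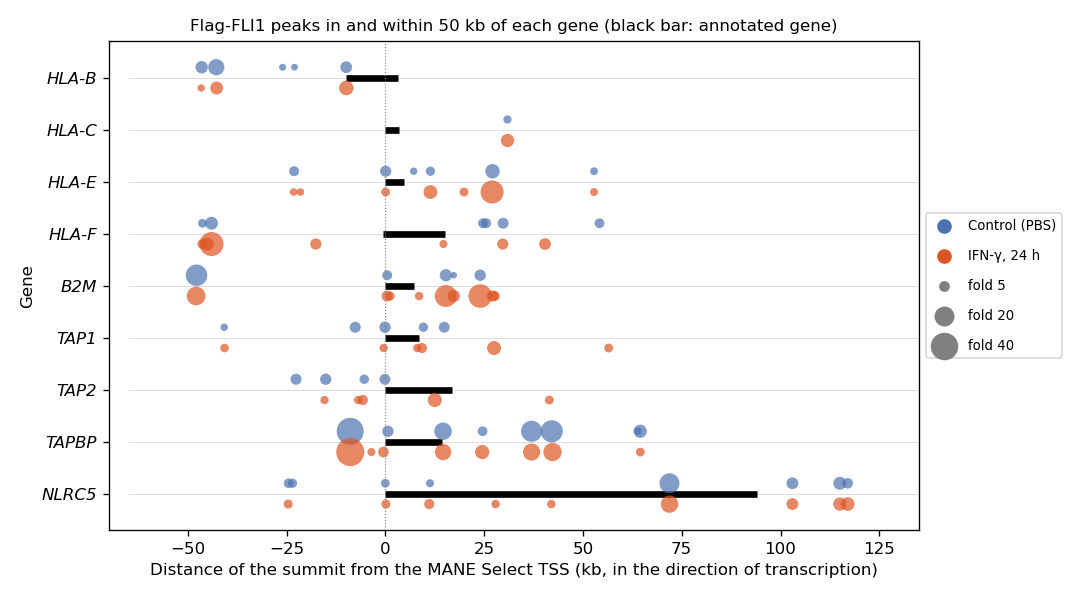
Summits of all peaks in and within 50 kb of each gene, by distance from the MANE Select TSS in kb in the direction of transcription (horizontal axis), with the area of each point in proportion to fold enrichment, the control library above and the IFN-γ library below the line, and the annotated gene as a black bar. The points at 15.3 and 24 kb downstream of *B2M*, 27 kb downstream of *HLA-E* and 44 kb upstream of *HLA-F* are larger in the IFN-γ library, and the *HLA-C* line carries 1 point per library.

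*TAP1* (ENSG00000168394, minus strand of chromosome 6, 32845209 to 32853816) and *TAP2* (ENSG00000204267, minus strand, 32821833 to 32838739) encode the subunits of the peptide transporter. *TAP1* shares a bidirectional promoter with *PSMB9*, an immunoproteasome subunit gene. In the control library its peak held 16 fragments (fold 7.68), with the summit 18 bp from a *TAP1* TSS. In the IFN-γ library it held 18 fragments (fold 4.18), with the summit 346 bp away and 4 bp from a *PSMB9* TSS, and its edge stopped 275 bp short of the MANE TSS of *TAP1*. The ratio was 0.773 (0.372 to 1.62), and the peak ranked 13738 of the control peaks and 30150 of the IFN-γ peaks.

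*TAP2* was the gene whose promoter peak was listed in the control library alone. That peak, at 32837982 to 32838965, held 19 fragments (fold 7.18, rank 13365), and the nearest IFN-γ peak edge lay 5.24 kb from the TSS. An IFN-γ-only peak was listed instead inside *TAP2*, in the untranslated part of exon 12 at 32825988 to 32826386, with 42 fragments (fold 11.8). Between the TAP genes, near the TSSs of *PSMB8*, overlapping peaks held 15 and 23 fragments, a ratio of 1.05 (0.526 to 2.17). Upstream of *TAP1* by 7.63 kb, a peak of 21 fragments (fold 7.31) was listed in the control library alone. Folds at the peaks of *TAP1* ranged from 3.29 to 7.68 in the control library and from 4.18 to 11.8 with IFN-γ.

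*TAPBP* (ENSG00000231925, minus strand of chromosome 6, 33299694 to 33314284) encodes tapasin, which bridges the transporter and the empty class I molecule. Its promoter peak was broad, spanning the MANE TSS at 33314078 in both libraries, but the summits lay 1116 bp apart. The control summit was in exon 3, downstream of the TSS, with 17 fragments (fold 7.75). The IFN-γ summit was upstream, on the *ZBTB22* side, with 41 fragments (fold 6.88). The ratio was 1.66 (0.921 to 3.11), and it compares different positions within the peak. With the ratio scaled by the median over promoter pairs it was 1.90 (1.05 to 3.56), which excludes 1. The local background was 1.32 control and 5.11 IFN-γ fragments, which neither ratio takes out. The fold was thus lower with IFN-γ although the pileup ratio was above 1.

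The neighbourhood of *TAPBP* held the peak of highest fold near the 9 genes in each library, at the promoter of another gene. The peak at the promoter of *DAXX*, which encodes a histone H3.3 chaperone, 8.89 kb upstream of *TAPBP*, held 98 control fragments (fold 43.6) and 174 IFN-γ fragments (fold 47.2), at a ratio of 1.22 (0.947 to 1.58). The peak over the 3′ end of *TAPBP*, 14.6 kb downstream of its TSS, held 79 and 107 fragments, a ratio of 0.930 (0.689 to 1.26). Of the 8 control peaks near *TAPBP*, 8 overlapped an IFN-γ peak, and with IFN-γ 7 of 8 overlapped a control one, beside 77.5% and 61.0% of the whole lists.

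*NLRC5* (ENSG00000140853, plus strand of chromosome 16, 56989485 to 57083531) encodes the class I transactivator, itself induced by IFN-γ. It had the highest peak counted at a promoter of the 9 genes, at 57060968 to 57061821 in the control list, but that peak lay 71.9 kb inside the gene. The summit was in exon 31 of the MANE transcript, 2280 bp from an internal TSS, so it counts as a promoter peak only through an alternative transcript. The pileups were 55 fragments (fold 23.9, rank 1663) without and 69 (fold 18.3, rank 3083) with IFN-γ, a ratio of 0.862 (0.596 to 1.25). At the MANE promoter of *NLRC5* the peaks were low, with 13 fragments (fold 4.65) and 20 (fold 5.02), a ratio of 1.06 (0.5002 to 2.31).

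Of the 9 peaks of *NLRC5* in each library, 7 overlapped a peak of the other, beside 77.5% of all control and 61.0% of all IFN-γ peaks. The 2 left in the IFN-γ list were in introns, with 17 and 12 fragments, and the 2 left in the control list lay outside the gene, with 11 and 7 fragments. Downstream of *NLRC5*, both of the strongest other peaks lay within 3 kb of TSSs of *CPNE2*, a copine gene. The peak 115 kb from the *NLRC5* TSS held 21 and 45 fragments, a ratio of 1.47 (0.859 to 2.60). The peak 117 kb away held 13 and 41 fragments, a ratio of 2.17 (1.14 to 4.41).

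Across the 6 genes with a pair of promoter peaks, 3 ratios were above 1 and 3 below, their median was 1.01, and 0 of 6 intervals excluded 1, beside 7.44% of all promoter pairs with an interval above 1 and 13.8% with one below. With so few pairs a count of 0 is near those shares, and scaled by the median over promoter pairs the count was 1, at *TAPBP*. The fold at *TAPBP* was lower with IFN-γ. The *NLRC5* ratio among the 6 is that of the exon 31 pair, 0.862, and at the MANE promoter of *NLRC5* the ratio was 1.06. A pileup of 13 to 24 fragments in the control library, as at 5 of the 6 promoters, gives intervals spanning more than the differences seen. Of the 31 overlapping pairs near the 9 genes that lay at the promoter of any gene, 6 (19.4%) had an interval above 1 and 1 (3.23%) had an interval below 1. The shares were 7.44% and 13.8% of all promoter pairs, and 18.9% and 1.81% of all distal pairs. Of the pairs with an interval above 1, those near *TRIM69*, *ZFP57* and *CPNE2* counted as promoter pairs with IFN-γ summits 931 to 2165 bp from the nearest TSS. The median ratio of the 31 pairs was 1.06, and the difference from the other pairs was not tested. Of the 4 distal pairs near the 9 genes, 4 had a ratio above 1 and 1 an interval above 1, with a median of 1.59. Of all distal pairs, 6922 of 9945 had a ratio above 1 and 18.9% an interval above 1, so counts over 4 pairs are near those shares.

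**Figure D3:**
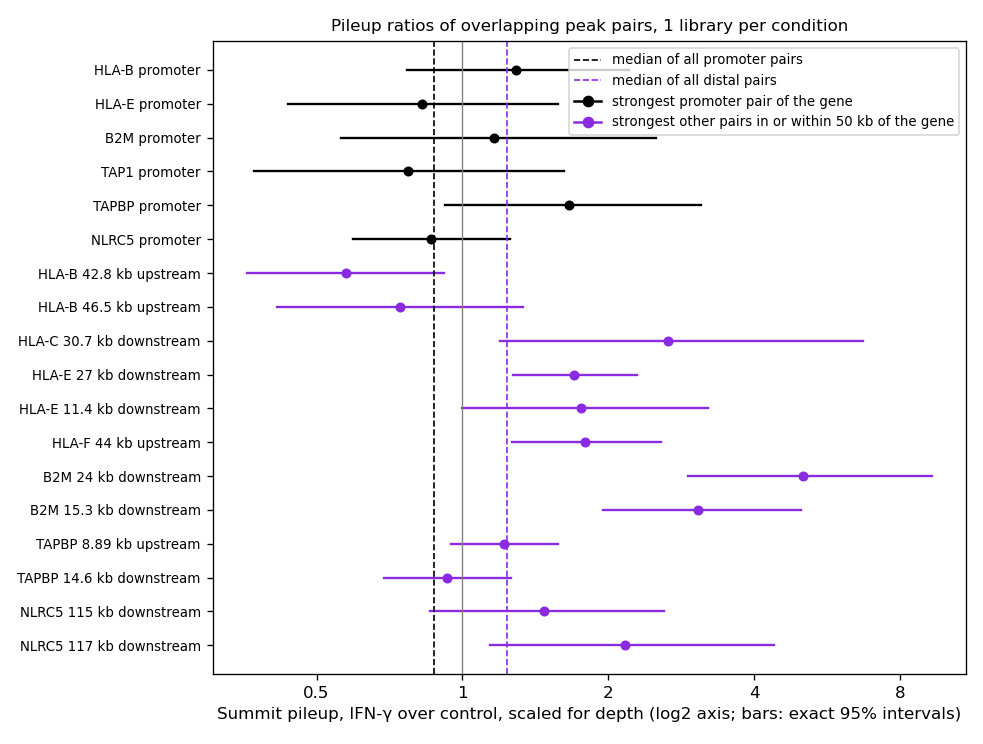
Ratio of summit pileup in the IFN-γ library over the control library, scaled for depth (horizontal axis, log2 scale), with exact 95% intervals as bars, for the strongest promoter pair of each gene in black and for the strongest other pairs in purple, and dashed lines at the medians of all promoter pairs (0.874) and all distal pairs (1.24). The intervals of the 6 promoters cross 1, and the *B2M* sites at 24 and 15.3 kb stand farthest to the right at 5.04 and 3.06.

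Taken by position, 9 of the 45 control peaks lay at a promoter of 1 of the 9 genes, 28 at the promoter of another gene only, and 8 at none. In the IFN-γ library the numbers were 11, 30 and 9 of 50. Of the control peaks, 35 (77.8%) overlapped an IFN-γ peak, against 77.5% of the whole control list. For the IFN-γ list the overlap was 34 of 50 (68.0%), against 61.0% of the list as a whole. Peaks were more numerous around these genes than around the median gene, with a median of 5 and 7 peaks per gene by the rule, against 3 in each library over all protein-coding genes. Of the 9 genes, 7 lie on chromosome 6, and 4 control and 5 IFN-γ peaks were counted for both *TAP1* and *TAP2*. Gene density and gene length were not taken into account.

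Motifs were read in the DNA in 2 ways, around the summits and in the promoters themselves. The ETS octamer, searched on both strands as CAGGAAGT or as CCGGAAGT, each of which contains the core, lay within 100 bp of 0 of the 7 control promoter summits and 0 of the 6 IFN-γ promoter summits of these genes. Over all promoter peaks it was found at 13.4% of 17536 control summits and 15.0% of 18627 IFN-γ summits, and a count of 0 among so few summits is no result about these genes. The core alone was found at 7 of the 7 control summits, and at 94.3% of all control promoter summits. The IRF letters AANNGAAA were found at 12.0% of all control promoter summits, and of the 7 summits those of *B2M*, *TAP1* and *TAP2* held them. Of the 6 IFN-γ promoter summits only that of *B2M* held them, beside 18.7% of all IFN-γ promoter summits.

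In the MANE promoters, from 250 bases before to 50 after the TSS, the IRF letters were, after the ETS core, the ones found in most of the 9 genes. AANNGAAA was present in 8 of the 9, with *HLA-E* as the exception, and in 18.6% of 19061 MANE promoters. The 9 are not independent sequences, since the promoters of *HLA-B*, *HLA-C* and *HLA-F* were 78.3% to 88.3% identical to each other. CCAAT, the letters of the Y box, was present in 6 of the 9 and in 36.1% of all. TGACG, which forms part of the X2 box, was present in 5 of the 9 and in 29.5% of all. GGGNNTTCC, searched as the NF-κB site and overlapping the ETS core TTCC, was present in the promoters of *HLA-B*, *B2M* and *TAPBP* and in 7.38% of all.

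The ETS octamer was present in 0 of the 9 MANE promoters and in 8.99% of all, and the STAT letters TTCNNNGAA in 0 of the 9 and in 6.38% of all. Counts of 0 in 9 are near those shares. The core GGAA was present in 9 of the 9 and in 94.7% of all. *HLA-C* and *HLA-F*, which had no promoter peak, held 2 and 4 cores in this window, and *B2M* and *TAP2*, which had one, held 3 and 2. Genes with and without a promoter peak thus overlapped in their number of cores. These matches are descriptions of the reference sequence and do not show that a factor was bound.

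Other genes of the pathway were counted as 4 lists, and their counts stand beside the shares of all protein-coding genes with a promoter peak, 61.9% without and 59.7% with IFN-γ. Of the 7 genes that supply peptides (*PSMB8*, *PSMB9*, *PSMB10*, *PSME1*, *PSME2*, *ERAP1* and *ERAP2*), 7 had a promoter peak without IFN-γ and 6 with it, with *PSME1*, a proteasome activator gene, in the control library only. The strongest were at *PSMB10*, an immunoproteasome subunit gene, with folds of 15.7 and 8.39, and at *ERAP2*, a peptide-trimming aminopeptidase gene, with folds of 8.40 and 12.1. *PSMB9* shares the peak at the *TAP1* promoter in each library, though its strongest IFN-γ peak was that of *PSMB8*. The *PSMB8* peaks lay between the TAP genes, at the promoter of neither.

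Of the 4 chaperone genes (*CALR*, *CANX*, *PDIA3* and *TAPBPL*), 3 had a promoter peak in each library and 2 had overlapping ones, and *TAPBPL*, which encodes a tapasin-related peptide editor, had none. The peak of *CALR*, the calreticulin gene, lay 2627 bp from its nearest TSS in the control library, with folds of 24.6 and 13.6. That of *CANX*, the calnexin gene, had folds of 13.7 and 7.59. Of the 5 class I-like genes (*MICA*, *MICB*, *HFE*, *MR1* and *FCGRT*), 4 had a promoter peak in each library, and *MR1*, whose product presents microbial metabolites, had none. *FCGRT*, the neonatal Fc receptor gene, had folds of 6.25 and 21.7, while *MICA* had 15.8 and 9.90.

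Of the 11 regulators (*RFX5*, *RFXANK*, *RFXAP*, *CREB1*, *NFYA*, *NFYB*, *NFYC*, *IRF1*, *IRF2*, *RELA* and *NFKB1*), 11 had a promoter peak without IFN-γ and 10 with it (61.9% and 59.7% of all protein-coding genes), *RFXAP* being the exception. The strongest were at genes of NF-κB subunits, *RELA*, with folds of 21.2 (61 fragments) and 13.2 (55 fragments), and *NFKB1*, with folds of 18.8 (43 fragments) and 26.8 (67 fragments). Over the 4 lists, 25 of 27 genes had a promoter peak in the control library, 23 in the IFN-γ library and 22 overlapping peaks in both, beside 61.9%, 59.7% and 54.9% of all protein-coding genes. The same counts among the 9 class I presentation genes were 7, 6 and 6, and the difference between these lists was not tested.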

How the data were processed

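Flag ChIP-seq was analysed in 2 libraries of HK1 cells, 1 per condition. According to the methods and the submitters' processing notes, Cutadapt 1.18 was used for trimming, Bowtie2 2.3.4.1 for alignment against GRCh38, Picard for removal of duplicates and MACS2 2.1.2 for peak calling, at a stated p-value cutoff of 0.01. In the control list, however, the peak ranked 30798 of 30819 had a −log10 p of 3.52 and a −log10 q of 1.30. Almost no listed control peak thus lay near the stated cutoff. Whether the input was used is not given in the sources used here. The deposited files hold, for each peak, the summit's −log10 p, −log10 q and fold enrichment (a ratio), all as computed by the authors' peak caller, and a score, which was not used.

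The summit pileup and background were solved from the deposited fold enrichment and −log10 p, assuming fold as pileup plus 1 over background plus 1 and an upper-tail Poisson p, and whole pileups came out for 100% of 70473 peaks, with a largest relative error of 6.21e-06. The lists give no read totals, so depth was read from the lowest backgrounds, 1.06 and 1.54 fragments. Intervals are exact Clopper-Pearson at 95% and cover counting error only. Peak pairs overlapped by at least 1 bp, and for each gene the pair of highest mean −log10 p was used. Genes and TSSs were from GENCODE 44. Motifs were searched within 100 bp of summits and in promoters of 300 bases. Promoter identity is edit distance (edlib 1.3.9.post1). Every member is described, with its strongest promoter peak and the 2 strongest other peaks by −log10 p over both libraries, beside a few pairs, low promoter peaks and library-specific peaks chosen after their values were seen. Pathway genes were named as the 2 of each list with the highest −log10 p and those without a peak. Of the planned genes, 1 is not reported here. Sequences printed hold at most 30 untranslated bases. Members, lists and settings were chosen with earlier results of these data known. Pileup recovery, promoter calls, genes with a promoter peak, peak overlaps and the octamer search were tested on simulated data. The other steps had no such test. Python 3.11.15, numpy 2.4.6, scipy 1.17.1, pandas 2.3.3 and matplotlib 3.10.9 were used.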

Additional observations from a re-analysis of the deposited data

How the results depend on the processing

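The alternatives were q-values under 0.01 or 1e-05, a promoter of 1 kb, the MANE TSS alone, summits in place of peak edges, summits within 100 bp for a shared pair, a distance of 10 kb, other depth scalings and other motif settings. The promoter counts stayed within 1.5 times of those reported under each, and the lowest were 6, 5 and 4 (control, IFN-γ and shared). Within 10 kb of the genes, 20 control and 24 IFN-γ peaks remained, a fall that follows from the narrower window. Scaling by the median over promoter pairs multiplied every ratio by the same factor (the scale became 1.273 in place of 1.456), and 1 of 6 promoter intervals, that of *TAPBP*, then excluded 1. With the core GGAA in place of the octamer, 7 promoter summits matched. With the pair nearest to the MANE TSS, the *NLRC5* ratio moved from 0.862 to 1.06, and both intervals included 1. The rank of the *TAPBP* peak in the IFN-γ list moved from 11995 to 18447 by fold. Depth limits the promoter ratios, since 5 of 6 control summits held 24 fragments or fewer. No paired analysis was possible because neither treatment had a replicate.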
